A study of Mus musculus with 9 samples.

Results

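Fetal liver macrophages sit at the centre of erythroblastic islands and are surrounded by the cells they serve. They secrete growth factors that act on erythroid, endothelial and stromal neighbours, and cytokines that act on other leukocytes. Here, 10 secreted or membrane-bound factors were followed in macrophages in which the gene of the phosphate exporter XPR1 was targeted: the growth factors *Igf1*, *Kitl*, *Hgf*, *Vegfa*, *Vegfb* and *Pdgfb*, the regulatory cytokine *Tgfb1*, and the inflammatory cytokines *Il18*, *Il1b* and *Tnf*. They were chosen by gene symbol, with earlier results of these data known. All 10 had a row among the 13708 genes of the deposited table and passed the filter on low values.

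Bulk RNA-seq was performed on CD45+ F4/80hi CD11blow macrophages sorted from mouse embryonic livers at E15.5, with 5 Mrc1Cre Xpr1fl/fl samples and 4 Xpr1fl/fl control samples. In both groups the *Xpr1* alleles carry *loxP* sites, and the groups differ by the *Mrc1*-driven Cre, which is inserted in the *Mrc1* locus and, per the study's methods, used as a heterozygote on a C57BL/6JRj background. *Mrc1* encodes CD206 and is also active in liver sinusoidal endothelial cells, where this Cre can delete *Xpr1* as well, and no group carried the Cre without floxed *Xpr1*, so the insertion and the loss of *Xpr1* cannot be told apart. The sources used here do not say whether each sample was a single embryo or a pool, so p-values measure the spread between these samples, which may be technical.

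The values are normalized counts, that is, gene counts that the authors divided by DESeq2 normalization factors, so sample totals (26942921 to 28309443) do not give the depth. *Xpr1* had 1162.1 ± 84.9 normalized counts in Mrc1Cre Xpr1fl/fl samples and 1981.6 ± 204.7 in controls, where ± gives the SD over n = 5 and n = 4 samples here and throughout, a log2 fold change of −0.77. *Mrc1*, the site of the Cre insertion, fell by 1.72 on the log2 scale (limma adjusted p = 5.37e-06). The macrophage genes were high in both genotypes, with 46581 ± 1402.2 and 46008 ± 4749.5 normalized counts of *Adgre1* (F4/80) in Mrc1Cre Xpr1fl/fl and control samples and 84995 ± 6384.8 and 77102 ± 5258.6 of *Csf1r*, although the macrophage markers *C1qa*, *C1qc* and *Cd5l* were lower past the threshold. Column names carry 1 of 3 dates, of unknown meaning: Mrc1Cre Xpr1fl/fl sample 5 shares the earliest with controls 1 to 3, control 4 has its own, and Mrc1Cre Xpr1fl/fl samples 1 to 4 share the latest. Date and genotype therefore overlap almost completely, and only sample 5 is compared with controls when the date is a term in the fit. RNA of other liver cells was lower in Mrc1Cre Xpr1fl/fl samples: past the threshold, 14 of 14 erythroid, 12 of 12 hepatocyte, 12 of 14 endothelial, 8 of 11 stellate and stromal, 6 of 10 megakaryocyte, 3 of 4 mast cell and 6 of 6 lymphoid markers were lower, and 0 of these were higher. With the date as a term, 3 erythroid, 2 hepatocyte, 2 endothelial, 3 stellate and stromal, 1 megakaryocyte, 3 mast cell and 4 lymphoid markers were lower. Of all genes tested, 21.6% were lower past the threshold. The 10 macrophage markers summed to 311838.9 to 358469.3 normalized counts in Mrc1Cre Xpr1fl/fl samples and 350408.4 to 442012.0 in controls. As a share of all counts they held 1.11 to 1.27% and 1.3 to 1.59%, so the summed macrophage markers were lower too. In a bulk sample, fewer cells of a type and less RNA per cell cannot be told apart.

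IGF1 is a hormone-like growth factor that promotes survival and late differentiation of erythroid cells, KIT ligand binds the receptor KIT on progenitors, and HGF binds MET on epithelial cells. VEGF-A and VEGF-B bind receptors on endothelium, and PDGF-B recruits pericytes and stellate cells. TGF-beta 1 is secreted in a latent form and restrains proliferation of progenitors. IL-1 beta and IL-18 are made as inactive precursors that caspase-1 cleaves within inflammasomes, and TNF is shed from the membrane by ADAM17. Both IL-1 beta and TNF are known to dampen erythropoiesis in inflammation.

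Inflammatory *Tnf* and *Il1b* rose in Mrc1Cre Xpr1fl/fl macrophages, by 1.69-fold and 1.78-fold, whereas the growth factors *Igf1*, *Vegfa* and *Vegfb* fell. The other 5 factors did not pass the test. The log2 fold change (log2FC, Mrc1Cre Xpr1fl/fl minus control) was tested with limma on log2(normalized count + 1) over 13594 genes, with Benjamini-Hochberg adjustment and a threshold of 0.05. Of all genes tested, 43.1% passed this threshold, 21.5% higher and 21.6% lower, so 5 of 10 factors is close to the background and the count alone does not set them apart. Counts for the gene lists below are to be read against these same shares. The median log2FC of the 10 factors was −0.10, against 0.005 over all genes tested. It was −0.38 for the 6 growth factors, of which 3 were lower and 0 higher, and 0.76 for the 3 inflammatory cytokines, of which 2 were higher and 0 lower. Neither group moved as 1, since *Il18* had a log2FC below 0 (−0.21) and *Kitl* and *Hgf* had one above 0, without passing. In 4 of the factors (*Igf1*, *Vegfa*, *Vegfb* and *Tnf*) the 2 genotypes shared no part of their ranges, where 34.1% of all genes did not. A second fit took the date as a term (the date-adjusted fit here). In it 0 of the 10 passed, where 8.78% of all genes did (4.24% higher and 4.54% lower), and *Tnf* and *Igf1* then lay closest to the threshold.

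**Figure D1:**
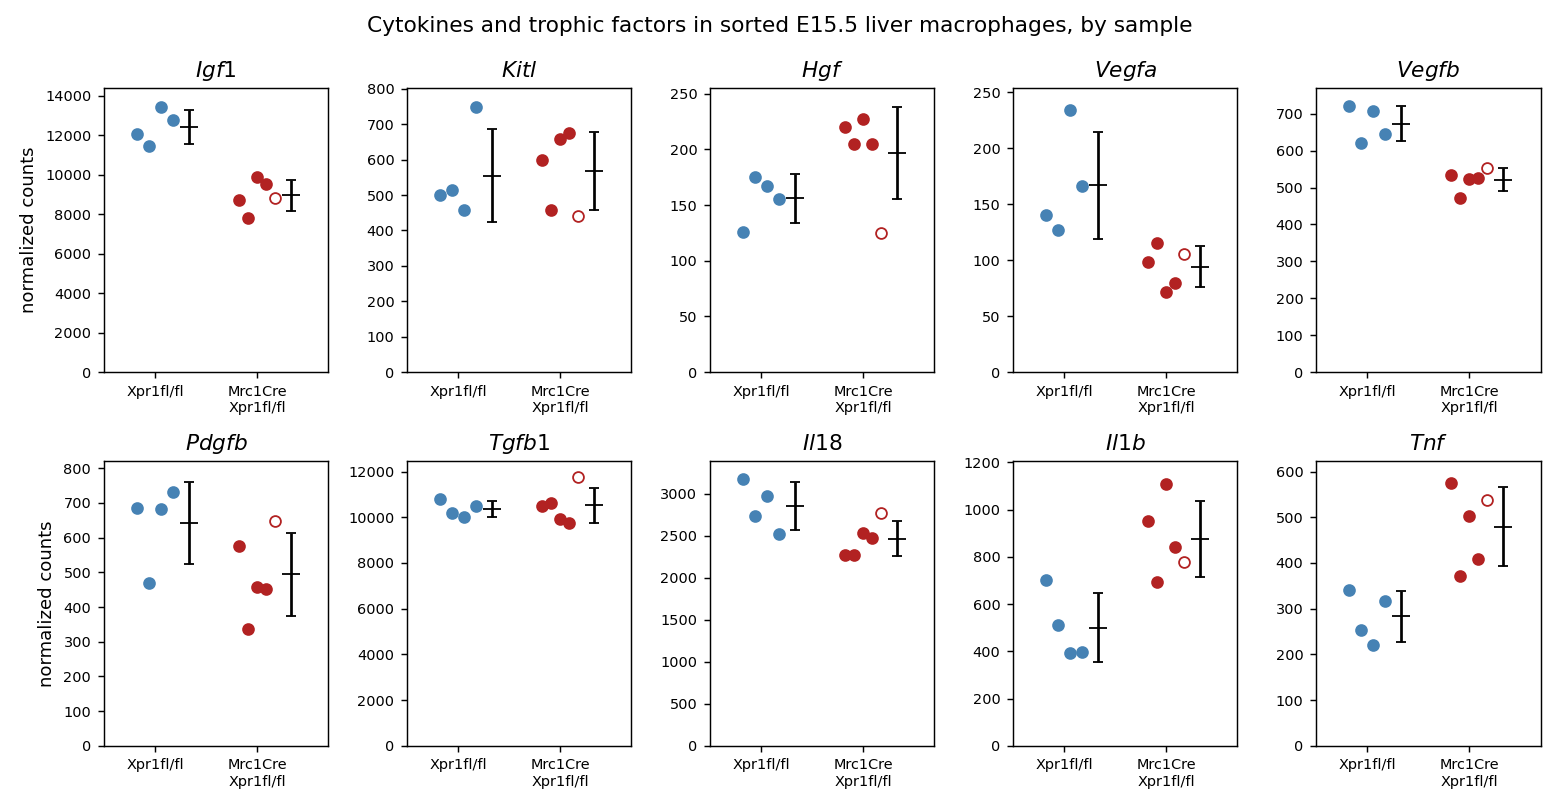
Normalized counts (vertical axis, linear from 0) of the 10 factors in 4 Xpr1fl/fl control samples (blue) and 5 Mrc1Cre Xpr1fl/fl samples (red), with the mean and SD of each group in black; the open symbol is Mrc1Cre Xpr1fl/fl sample 5, the one dated like controls 1 to 3. The groups are separate for *Igf1*, *Vegfa*, *Vegfb* and *Tnf*, and sample 5 lies with the controls for *Hgf*.

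*Igf1* (ENSMUSG00000020053, GRCm39 chromosome 10, 87693642 to 87772904, plus strand) had 8728.2, 7826.8, 9895.2, 9503.1 and 8820.1 normalized counts in Mrc1Cre Xpr1fl/fl samples 1 to 5. In controls 1 to 4 it had 12043.2, 11441.1, 13446.9 and 12752.8. Every Mrc1Cre Xpr1fl/fl sample, the one that shares its date with controls included, lay below every control. This gave a log2FC of −0.47 (SE 0.07, limma adjusted p = 0.000444), a level of 0.72 times that of controls, and the adjusted p was between 0.000566 and 0.00208 across the 9 fits that leave out 1 sample. In the date-adjusted fit it was −0.48 (limma adjusted p = 0.0519).

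Genes that transport, sense or resemble IGF1 were mostly lower too, where 21.6% of all genes tested were lower past the threshold. Of the 11 other genes of the IGF axis tested, 9 were lower and 1 higher past the threshold, against 4 and 0 in the date-adjusted fit. *Igf2*, the fetal paralog of *Igf1*, had 1923.7 ± 394.7 normalized counts in Mrc1Cre Xpr1fl/fl samples and 4746.2 ± 917.2 in controls, a log2FC of −1.31 (limma adjusted p = 0.000105). *Igfbp4*, which encodes a secreted IGF-binding protein, went from 2590.2 ± 220.3 in controls to 902.6 ± 125.9 in Mrc1Cre Xpr1fl/fl samples, the order used for all such pairs (log2FC −1.53, limma adjusted p = 4.95e-06), and *Igfbp3* from 167.4 ± 46.1 to 59.0 ± 22.7 (−1.53, limma adjusted p = 0.00124). *Igfbp3* no longer passed in the date-adjusted fit (−0.93, limma adjusted p = 0.188). The receptor gene *Igf1r* fell by 0.49 on the log2 scale (limma adjusted p = 0.0202), with overlapping samples, and missed the threshold without control 3 (log2FC −0.34, limma adjusted p = 0.0532). *Insr*, the insulin receptor gene, was the only higher one of the list past the threshold. Hepatocytes are known to make *Igf2*, and the summed level of 12 hepatocyte markers moved with it, at 35021.1 to 45355.7 normalized counts in Mrc1Cre Xpr1fl/fl samples and 59196.7 to 101762.1 in controls. Their part in these results was not tested.

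*Kitl* (ENSMUSG00000019966, chromosome 10, 99851492 to 99936278, plus strand) ranged from 441.8 to 675.9 normalized counts in Mrc1Cre Xpr1fl/fl samples and from 456.9 to 749.1 in controls. The ranges lay almost on top of each other. The log2FC of 0.04 had a 95% interval from −0.33 to 0.40 (limma adjusted p = 0.884), and its sign turned under 75th percentile scaling (−0.04) and in the date-adjusted fit (−0.15). Its receptor gene *Kit*, a marker of progenitors and mast cells, fell from 612.8 ± 151.5 to 198.0 ± 25.9, a log2FC of −1.60 (limma adjusted p = 4.74e-05). *Epor*, the receptor gene for erythropoietin and a gene of erythroid cells and island macrophages, fell from 1356.0 ± 173.3 to 467.7 ± 90.4 (−1.55, limma adjusted p = 2.04e-05). Both falls passed in the date-adjusted fit (limma adjusted p = 0.0109 and 0.00877). The summed level of 14 erythroid markers moved the same way, at 105602.6 to 318447.3 normalized counts against 417605.4 to 660031.1 in controls. Their part in the falls of *Kit* and *Epor* was not tested.

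*Hgf* (ENSMUSG00000028864, chromosome 5, 16758041 to 16828178, plus strand) had 220.0, 205.2, 227.6 and 204.5 normalized counts in Mrc1Cre Xpr1fl/fl samples 1 to 4 and 124.6 in sample 5. In controls 1 to 4 it had 125.5, 175.3, 167.2 and 155.5. Samples 1 to 4 were above every control, and sample 5 was below every control. Over all samples *Hgf* did not pass (log2FC 0.31, 95% interval −0.09 to 0.71, limma adjusted p = 0.187). Without sample 5 it did (0.47, limma adjusted p = 0.013), as it did after quantile normalization (0.57, limma adjusted p = 0.0277), and in the date-adjusted fit the sign turned (−0.31, limma adjusted p = 0.423). The date and the genotype cannot be told apart for this gene. *Hgf* also shares 484 bp of exons on the same strand with *Gm43489*, a gene with no row here.

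On the receiving side, *Met*, the receptor gene for HGF, rose from 232.7 ± 24.4 to 654.8 ± 120.4 normalized counts. All 5 Mrc1Cre Xpr1fl/fl samples were above the controls, for a log2FC of 1.48 (limma adjusted p = 2.37e-05) and 1.12 after date adjustment (limma adjusted p = 0.0114). *Spint1* and *Spint2* encode related membrane-bound inhibitors of the proteases that activate HGF, and they moved in opposite directions. *Spint1* rose from 33.5 ± 13.5 to 150.0 ± 38.0 normalized counts (log2FC 2.18, limma adjusted p = 0.000144, and 0.0582 in the date-adjusted fit), and *Spint2* fell from 113.4 ± 20.8 to 37.5 ± 16.1 (−1.64, limma adjusted p = 0.000703). Of the 9 genes of the KIT ligand, HGF and EPO axis other than *Kitl* and *Hgf*, 2 were higher and 5 lower past the threshold, against 1 and 3 in the date-adjusted fit.

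*Vegfa* (ENSMUSG00000023951, chromosome 17, 46327919 to 46343309, minus strand) had 98.4, 115.6, 71.1, 79.5 and 105.1 normalized counts in Mrc1Cre Xpr1fl/fl samples 1 to 5, and 140.1, 127.0, 233.9 and 166.2 in controls 1 to 4. It was lower in every Mrc1Cre Xpr1fl/fl sample than in any control. At a log2FC of −0.80 (SE 0.20, limma adjusted p = 0.00828) it showed a larger fall than the other factors under the deposited scaling. After quantile normalization it was −0.51 and no longer passed (limma adjusted p = 0.062), and *Igf1*, at −0.56, then fell more. *Vegfa* was −0.61 in the date-adjusted fit (limma adjusted p = 0.336).

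*Vegfb* (ENSMUSG00000024962, chromosome 19, 6958447 to 6965127, minus strand), a paralog of *Vegfa*, had 533.6, 471.4, 523.4, 527.2 and 552.6 normalized counts in Mrc1Cre Xpr1fl/fl samples and 720.6, 620.3, 707.8 and 645.4 in controls. These ranges also did not touch, and the spread within each genotype was narrow. This gave a log2FC of −0.37 (SE 0.07, limma adjusted p = 0.00254), and −0.30 in the date-adjusted fit (limma adjusted p = 0.187). The adjusted p stayed between 0.00249 and 0.0105 across the 9 fits that leave out 1 sample.

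*Vegfa* is a classic target of hypoxia-inducible factors (HIFs). Of 17 other HIF target genes tested, 9 were higher and 4 lower past the threshold, and 2 were higher and 1 lower in the date-adjusted fit. Among all genes tested 21.5% were higher and 21.6% lower past the threshold. The part of HIFs in the level of *Vegfa* was not tested. The higher HIF targets included the glycolytic genes *Ldha*, *Pgk1*, *Eno1* and *Aldoa*. Lower ones included *Adm*, the gene of the vasoactive peptide adrenomedullin, which went from 227.5 ± 59.6 to 45.1 ± 11.0 normalized counts, a log2FC of −2.31 (limma adjusted p = 2.69e-05). *Ndrg1*, a stress-responsive gene, fell from 184.6 ± 43.7 to 95.6 ± 22.3 (−0.94, limma adjusted p = 0.00422), and did not pass in the date-adjusted fit (−0.47, limma adjusted p = 0.425).

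The 250 bases before the start of the canonical GENCODE transcript were read from GRCm39 for the VEGF genes, which fell, and for *Il1b* and *Tnf*, which rose, to show the sequence next to each start. They lie at chr17:46343310-46343559 for *Vegfa*, chr19:6965116-6965365 for *Vegfb*, chr2:129213060-129213309 for *Il1b* and chr17:35420984-35421233 for *Tnf*, all on the minus strand, and are written 5′ to 3′ on the strand of the gene. Capitals mark matches on either strand to the interferon response core, the NF-kappaB core, ACGTG (hypoxia response core) and, added after the sequences were seen, the core promoter element TATAAA.
Vegfa: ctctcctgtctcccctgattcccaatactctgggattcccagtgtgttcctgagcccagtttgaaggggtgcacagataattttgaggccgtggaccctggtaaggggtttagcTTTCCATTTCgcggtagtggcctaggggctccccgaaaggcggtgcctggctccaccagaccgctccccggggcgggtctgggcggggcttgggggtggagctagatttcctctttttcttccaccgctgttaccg
Vegfb: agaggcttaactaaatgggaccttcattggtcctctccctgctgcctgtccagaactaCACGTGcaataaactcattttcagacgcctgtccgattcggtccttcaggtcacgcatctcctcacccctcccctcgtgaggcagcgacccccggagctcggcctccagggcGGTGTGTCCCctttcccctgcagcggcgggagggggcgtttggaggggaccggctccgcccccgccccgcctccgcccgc
Il1b: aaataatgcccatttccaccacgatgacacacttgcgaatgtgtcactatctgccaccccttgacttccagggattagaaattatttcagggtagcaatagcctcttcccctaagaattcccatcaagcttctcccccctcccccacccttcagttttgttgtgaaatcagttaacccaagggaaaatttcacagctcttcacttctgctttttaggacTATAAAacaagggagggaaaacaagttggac
Tnf: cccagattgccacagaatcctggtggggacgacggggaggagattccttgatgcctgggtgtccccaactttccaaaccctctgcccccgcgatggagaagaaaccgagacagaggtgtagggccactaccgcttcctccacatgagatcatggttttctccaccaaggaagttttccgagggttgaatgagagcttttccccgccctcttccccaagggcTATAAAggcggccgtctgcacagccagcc
The TATAAA match lies 31 to 26 bases before the start of *Il1b* and 29 to 24 bases before that of *Tnf*. Among the 13698 genes with such a sequence, 8.13% held TATAAA. *Pdgfb*, which did not pass the test, also held it. No match to the NF-kappaB core was found in these windows of *Il1b* and *Tnf*, and 19.6% of all windows held one. *Vegfa* held an interferon response core (3.26% of all windows), and *Vegfb* an NF-kappaB core and the palindrome CACGTG. This palindrome matches the hypoxia response core on both strands at the same place, and ACGTG was in 20% of all windows. These matches are a description of letters and not of binding.

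*Pdgfb* (ENSMUSG00000000489, chromosome 15, 79880009 to 79899181, minus strand) ranged from 337.1 to 648.0 normalized counts in Mrc1Cre Xpr1fl/fl samples and from 469.6 to 731.4 in controls. The highest Mrc1Cre Xpr1fl/fl value was that of sample 5, and the ranges overlapped. The log2FC of −0.39 had a 95% interval from −0.80 to 0.01 (limma adjusted p = 0.106). It passed without Mrc1Cre Xpr1fl/fl sample 5 (−0.50, limma adjusted p = 0.0364) and without control 2 (−0.54, limma adjusted p = 0.0347), and its sign turned in the date-adjusted fit (0.10, limma adjusted p = 0.852).

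Of the 10 VEGF and PDGF genes other than these 3 factors, 5 were lower and 1 higher past the threshold, against 2 and 0 in the date-adjusted fit. *Nrp2*, a co-receptor gene for VEGF and semaphorins, fell from 726.0 ± 114.1 to 245.5 ± 58.2 normalized counts, a log2FC of −1.58 (limma adjusted p = 4.96e-05). *Pdgfc*, another ligand gene of the PDGF family, fell from 414.0 ± 47.7 to 175.5 ± 46.8 (−1.26, limma adjusted p = 0.000211). Both also passed in the date-adjusted fit (limma adjusted p = 0.00209 and 0.0076). The related co-receptor gene *Nrp1* rose by 0.42 on the log2 scale (limma adjusted p = 0.00685), but only by 0.12 in the date-adjusted fit, where it did not pass (limma adjusted p = 0.454). The VEGF receptor genes *Flt1* (log2FC −1.11, limma adjusted p = 0.0181) and *Kdr* (0.43, limma adjusted p = 0.307) and the PDGF receptor gene *Pdgfrb* (−0.52, limma adjusted p = 0.0158) are markers of endothelial and stromal cells. After quantile normalization *Flt1* (−0.76, limma adjusted p = 0.0768) and *Pdgfrb* (−0.18, limma adjusted p = 0.339) no longer passed. Neither *Flt1* (limma adjusted p = 0.237) nor *Pdgfrb* (limma adjusted p = 0.293) passed in the date-adjusted fit, where the sign for *Kdr* turned (−0.26). The summed levels of 14 endothelial markers (6961.0 to 9030.3 against 11439.0 to 16210.3 normalized counts in controls) and of 11 stellate and stromal markers (713.5 to 1254.8 against 2302.2 to 6243.7) were lower in every Mrc1Cre Xpr1fl/fl sample, and their part was not tested.

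**Figure D2:**
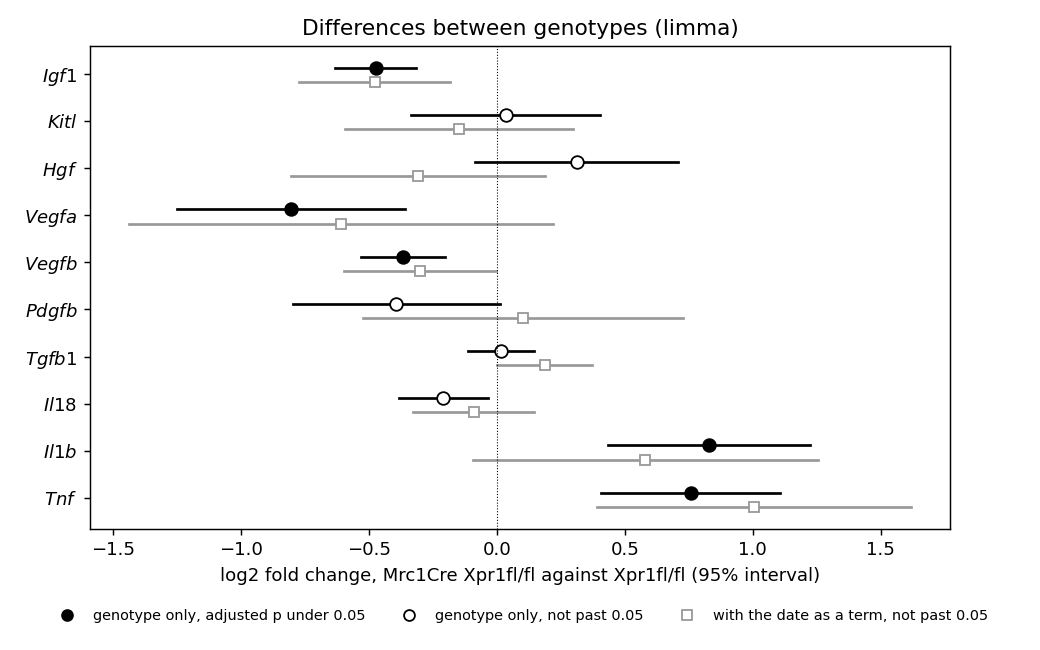
Log2 fold change of each factor in Mrc1Cre Xpr1fl/fl against Xpr1fl/fl macrophages (horizontal axis) with its 95% interval from limma. Black circles are the fit on genotype alone, filled where the adjusted p was under 0.05 (*Igf1*, *Vegfa*, *Vegfb*, *Il1b* and *Tnf*), and grey squares are the date-adjusted fit, in which 0 of 10 passed.

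*Tgfb1* (ENSMUSG00000002603, chromosome 7, 25386390 to 25404506, plus strand) lay in the same range in both genotypes, with 9768.3 to 11754.7 normalized counts in Mrc1Cre Xpr1fl/fl samples and 10028.4 to 10804.6 in controls. All controls lay within the range of the Mrc1Cre Xpr1fl/fl samples. The 95% interval of the log2FC, 0.02, ran from −0.11 to 0.15 (limma adjusted p = 0.842). The sign of so small a difference depended on the scaling, as it was −0.06 under 75th percentile scaling and after quantile normalization, and −0.02 without Mrc1Cre Xpr1fl/fl sample 5.

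Several genes that hold or sense TGF-beta passed the test, in both directions. Of all genes tested, 21.5% were higher and 21.6% lower, so the count in this list alone does not set it apart. *Nrros*, which encodes the macrophage protein that tethers latent TGF-beta 1, rose from 8679.5 ± 226.0 to 10734.4 ± 257.6 normalized counts, a log2FC of 0.31 (limma adjusted p = 0.000219, and 0.0402 in the date-adjusted fit). *Tgfbr1*, the type I receptor gene, rose from 4346.6 ± 176.8 to 6566.6 ± 801.9 (0.59, limma adjusted p = 0.000357), and the value of sample 5, 5174.8, was the lowest of the Mrc1Cre Xpr1fl/fl samples. *Tgfbr2*, the type II receptor gene, did not pass (0.06, limma adjusted p = 0.533), and its sign turned after quantile normalization (−0.05), under 75th percentile scaling (−0.02) and in the date-adjusted fit (−0.02). *Tgfbr3*, the gene of a co-receptor, fell from 269.9 ± 63.5 to 86.2 ± 15.1 (−1.62, limma adjusted p = 7.44e-05). *Lrrc32*, which tethers latent TGF-beta on platelets, endothelium and regulatory T cells, fell from 63.1 to 122.2 normalized counts in controls to 17.2 to 49.0 (−1.83, limma adjusted p = 0.00101), and *Ltbp4*, a matrix protein gene of fibroblasts, from 99.4 ± 67.9 to 15.9 ± 5.9 (−2.35, limma adjusted p = 0.00177). In the date-adjusted fit *Tgfbr1* (0.26, limma adjusted p = 0.0766), *Lrrc32* (−1.08, limma adjusted p = 0.122) and *Ltbp4* (−2.46, limma adjusted p = 0.066) did not pass. Of the 19 other genes of this list tested, 6 were higher and 4 lower past the threshold, against 1 and 1 in the date-adjusted fit. The summed level of 10 megakaryocyte and platelet markers was also lower (873.5 to 1315.8 against 2493.2 to 3111.5 normalized counts), and its part was not tested.

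*Il18* (ENSMUSG00000039217, chromosome 9, 50466081 to 50493633, plus strand) had 2270.3, 2269.9, 2535.9, 2478.2 and 2775.7 normalized counts in Mrc1Cre Xpr1fl/fl samples 1 to 5 and 3179.0, 2735.7, 2972.4 and 2522.6 in controls 1 to 4. The ranges overlapped, since control 4 was below samples 3 and 5 and sample 5 was above controls 2 and 4. The log2FC of −0.21 (SE 0.08) missed the threshold (limma adjusted p = 0.0533). It passed under 75th percentile scaling (−0.29, limma adjusted p = 0.0188) and after quantile normalization (−0.30, limma adjusted p = 0.0162), with array weights (−0.21, limma adjusted p = 0.0332), without Mrc1Cre Xpr1fl/fl sample 5 (−0.25, limma adjusted p = 0.0189) and without control 4 (−0.27, limma adjusted p = 0.0222). It did not pass without the variance trend (limma adjusted p = 0.0906), without any 1 of the other 7 samples, or in the date-adjusted fit, where the log2FC was −0.09 (limma adjusted p = 0.631).

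The soluble antagonist of IL-18 changed far more than the cytokine. *Il18bp* encodes IL-18 binding protein, a secreted decoy that keeps IL-18 from its receptor. It had 3155.4, 2442.8, 4572.4, 4455.9 and 5426.8 normalized counts in Mrc1Cre Xpr1fl/fl samples 1 to 5 and 13914.5, 9462.3, 16902.2 and 14920.9 in controls 1 to 4. Each control exceeded each Mrc1Cre Xpr1fl/fl sample. *Il18bp* had a log2FC of −1.81 (SE 0.23, limma adjusted p = 0.000125), and −1.27 in the date-adjusted fit (limma adjusted p = 0.0563). *Numa1*, which lies on the opposite strand and shares 446 bp of exons with *Il18bp*, went the other way (log2FC 0.45, limma adjusted p = 0.00371). The summed level of 14 erythroid markers was lower too, at 105602.6 to 318447.3 normalized counts against 417605.4 to 660031.1 in controls. Within each genotype this sum ranked the samples in the same order as *Il18bp*. The part of other cells in the fall of *Il18bp* was not tested.

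Within each sample, *Il18* was set against *Il18bp* as a log2 ratio. The ratio was −0.47, −0.11, −0.85, −0.85 and −0.97 in Mrc1Cre Xpr1fl/fl samples 1 to 5 and −2.13, −1.79, −2.51 and −2.56 in controls 1 to 4. It was higher in 5 of 5 Mrc1Cre Xpr1fl/fl samples than in any control, by 1.60 on average (two-sided exact permutation p = 0.0159 over all 126 assignments of samples to genotypes, the smallest this design allows, and 0.0159 after adjustment over 2 ratios). Any measure whose genotypes share no part of their ranges gets this p, and 34.1% of all genes tested shared none. Dates were not taken into account in the permutation. Sample 5 against the 3 controls of its date gave a difference of 1.18. The higher ratio came from the fall of *Il18bp*, since *Il18* itself did not rise, and the part of other cells in it was not tested.

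*Il1b* (ENSMUSG00000027398, chromosome 2, 129206490 to 129213059, minus strand) had 952.8, 691.7, 1109.1, 843.0 and 776.8 normalized counts in Mrc1Cre Xpr1fl/fl samples 1 to 5. In controls 1 to 4 it had 701.7, 510.9, 390.6 and 397.0. The genotypes overlapped only through sample 2 and control 1. This gave a log2FC of 0.83 (SE 0.18, limma adjusted p = 0.00365), and the adjusted p lay between 0.000808 and 0.0134 across the 9 fits that leave out 1 sample. It was 0.58 in the date-adjusted fit (limma adjusted p = 0.26). *Il1a*, the gene of the related alarmin, did not pass (0.09, limma adjusted p = 0.448), and neither did the receptor antagonist gene *Il1rn*, with 218.5 ± 39.6 normalized counts in Mrc1Cre Xpr1fl/fl samples and 250.1 ± 16.3 in controls (log2FC −0.21, limma adjusted p = 0.216). Without Mrc1Cre Xpr1fl/fl sample 3, *Il1rn* passed (−0.31, limma adjusted p = 0.0468).

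The log2 ratio of *Il1b* to *Il1rn* was 2.34, 1.87, 1.97, 2.03 and 1.77 in Mrc1Cre Xpr1fl/fl samples 1 to 5 and 1.37, 1.14, 0.68 and 0.64 in controls 1 to 4. The ranges were apart, with a mean difference of 1.04 (two-sided exact permutation p = 0.0159, and 0.0159 after adjustment over 2 ratios). This p has the same limits as that of the other ratio. Within the earliest date the difference was 0.71. Neutrophils and monocytes also make *Il1b*. The summed level of 11 neutrophil and granulocyte progenitor markers was 5079.3 to 18413.5 normalized counts in Mrc1Cre Xpr1fl/fl samples and 9188.2 to 54973.3 in controls. These ranges overlapped. Past the threshold, 4 of these markers were lower and 0 higher, and 7 did not pass. The summed level of 9 monocyte markers was 18179.9 to 25003.7 against 14416.9 to 18108.4. Of these 9, 3 (*Cx3cr1*, *Plac8* and *Itgam*) were higher past the threshold and 4 lower, with *Ly6c2*, *F13a1* and *Spn* among the lower. In the date-adjusted fit 0 were higher and 2 lower. The part of neutrophils and monocytes in the rise of *Il1b* was not tested.

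**Figure D3:**
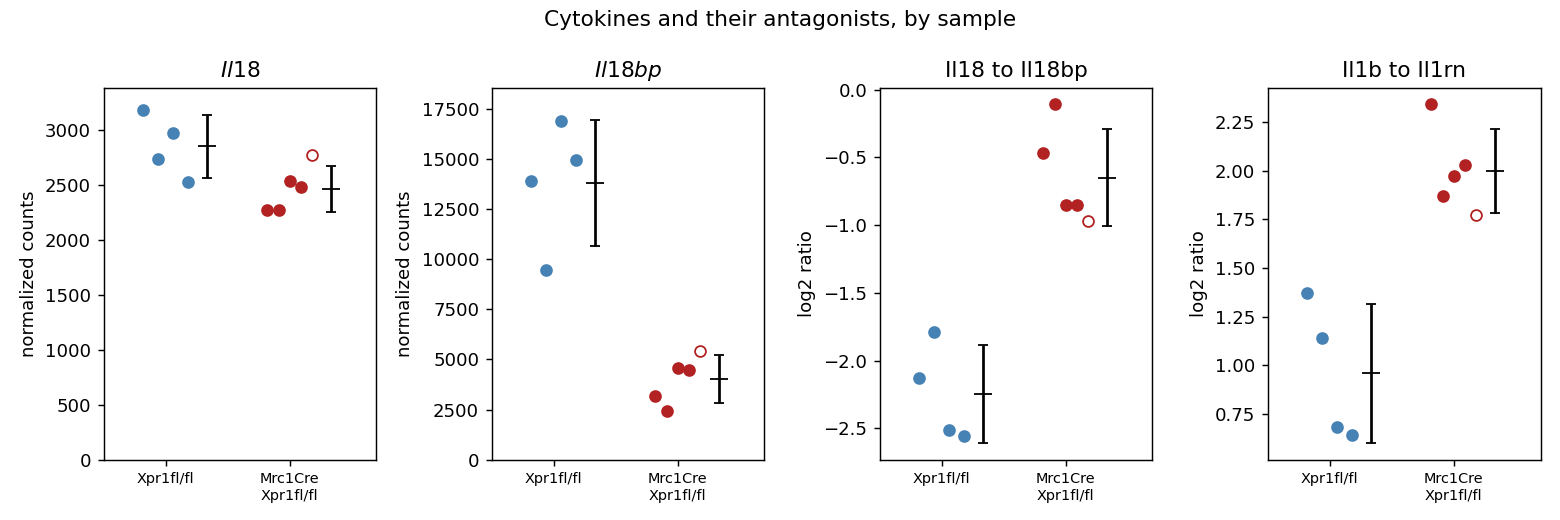
Normalized counts of *Il18* and *Il18bp* (left panels, linear axes from 0) and log2 ratios of *Il18* to *Il18bp* and of *Il1b* to *Il1rn* (right panels) in 4 Xpr1fl/fl control samples (blue) and 5 Mrc1Cre Xpr1fl/fl samples (red, sample 5 open), with the mean and SD in black. In both ratios every Mrc1Cre Xpr1fl/fl sample lies above every control, and *Il18bp* is separate between the genotypes while *Il18* is not.

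Several genes of the inflammasome, which processes both cytokines, rose, where 21.5% of all genes tested were higher past the threshold. *Casp1*, the gene of the processing protease, rose from 2249.1 ± 124.6 to 3149.4 ± 110.5 normalized counts, a log2FC of 0.49 (limma adjusted p = 4.9e-05, and 0.0208 in the date-adjusted fit). *Nlrp3*, a sensor gene, rose by 0.32 on the log2 scale (limma adjusted p = 0.001), and *Mefv*, the gene of the sensor pyrin, by 1.04 (limma adjusted p = 0.00017). *Irak3*, a negative regulator of IL-1 receptor signalling, went from 506.1 ± 44.2 to 1031.0 ± 235.5 (1.00, limma adjusted p = 0.000228). The signalling receptor gene *Il1r1* was low and fell from 60.4 ± 5.8 to 24.4 ± 4.0 (−1.29, limma adjusted p = 0.000418). In the date-adjusted fit *Nlrp3* (0.20, limma adjusted p = 0.192) and *Il1r1* (−1.25, limma adjusted p = 0.0622) did not pass. Of the 21 genes of this axis other than *Il18* and *Il1b*, 9 were higher and 2 (*Il18bp* and *Il1r1*) lower past the threshold, against 4 and 0 in the date-adjusted fit.

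*Tnf* (ENSMUSG00000024401, chromosome 17, 35418357 to 35420983, minus strand) had 575.2, 371.1, 503.0, 408.2 and 538.1 normalized counts in Mrc1Cre Xpr1fl/fl samples 1 to 5 and 340.7, 254.0, 221.5 and 316.5 in controls 1 to 4. No control reached the lowest Mrc1Cre Xpr1fl/fl sample. This gave a log2FC of 0.76 (SE 0.16, limma adjusted p = 0.00303), and the adjusted p was between 0.00203 and 0.0104 across the 9 fits that leave out 1 sample. In the date-adjusted fit it was 1.005 (limma adjusted p = 0.0502).

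*Adam17*, the gene of the protease that sheds TNF, rose as well, from 6205.7 ± 378.5 to 9194.4 ± 677.4 normalized counts. Its log2FC was 0.57 (limma adjusted p = 6.99e-05), and 0.44 in the date-adjusted fit (limma adjusted p = 0.0113). *Timp3*, which encodes an inhibitor of ADAM17 that stromal cells make, fell from 133.0 ± 19.7 to 58.7 ± 29.0 (−1.33, limma adjusted p = 0.0131), but did not pass in the date-adjusted fit (−0.52, limma adjusted p = 0.632). The receptor genes *Tnfrsf1a* (log2FC −0.02, 95% interval −0.12 to 0.09, limma adjusted p = 0.816) and *Tnfrsf1b* (0.12, 95% interval −0.01 to 0.24, limma adjusted p = 0.128) did not pass. *Tnfrsf1a* passed after quantile normalization (−0.12, limma adjusted p = 0.0494), and its sign turned with array weights. For the list that follows, the shares over all genes tested were 21.5% higher and 21.6% lower. Of the 17 genes of the TNF axis other than *Tnf*, 6 were higher and 3 lower past the threshold, against 3 and 0 in the date-adjusted fit.

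Of 15 other macrophage cytokines tested, 4 (*Il16*, *Csf1*, *Tnfsf9* and *Tnfsf10*) were higher and 2 (*Il12a* and *Tnfsf12*) lower past the threshold, against 1 and 1 in the date-adjusted fit. Among all genes tested 21.5% were higher and 21.6% lower, so the counts alone do not set these cytokines apart. *Tnfsf10*, the gene of the death ligand TRAIL, rose from 160.0 ± 31.9 to 295.7 ± 59.1 normalized counts (log2FC 0.88, limma adjusted p = 0.00182), and *Il16*, the gene of a chemoattractant for T cells, rose by 0.55 on the log2 scale (limma adjusted p = 0.000443). *Tnfsf12*, the gene of TWEAK, fell by 0.52 on that scale (limma adjusted p = 0.0152), and no longer passed after quantile normalization (−0.22, limma adjusted p = 0.27) or without control 3 (−0.45, limma adjusted p = 0.0511). In the date-adjusted fit *Tnfsf10* (0.51, limma adjusted p = 0.269) and *Tnfsf12* (−0.47, limma adjusted p = 0.277) did not pass. Of 22 other trophic factors tested, 12 were lower and 2 higher, against 4 and 0 in the date-adjusted fit. *Gas6*, the bridging ligand of MERTK and AXL, showed the largest fall of the genes named here, from 1682.5 to 2398.9 normalized counts in controls to 297.4 to 547.4 (−2.48, limma adjusted p = 4.66e-06, and 0.00138 in the date-adjusted fit). *Gdf3*, of the TGF-beta superfamily, fell from 124.9 ± 12.8 to 39.3 ± 11.0 (−1.68, limma adjusted p = 0.000123), and *Cxcl12*, a chemokine gene of stromal and endothelial cells, from 241.6 ± 57.1 to 85.4 ± 28.1 (−1.53, limma adjusted p = 0.00131). *Cxcl12* did not pass in the date-adjusted fit (−0.96, limma adjusted p = 0.228). The falls in stromal, endothelial and hepatocyte markers given above moved with these genes, and their part was not tested.

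**Figure D4:**
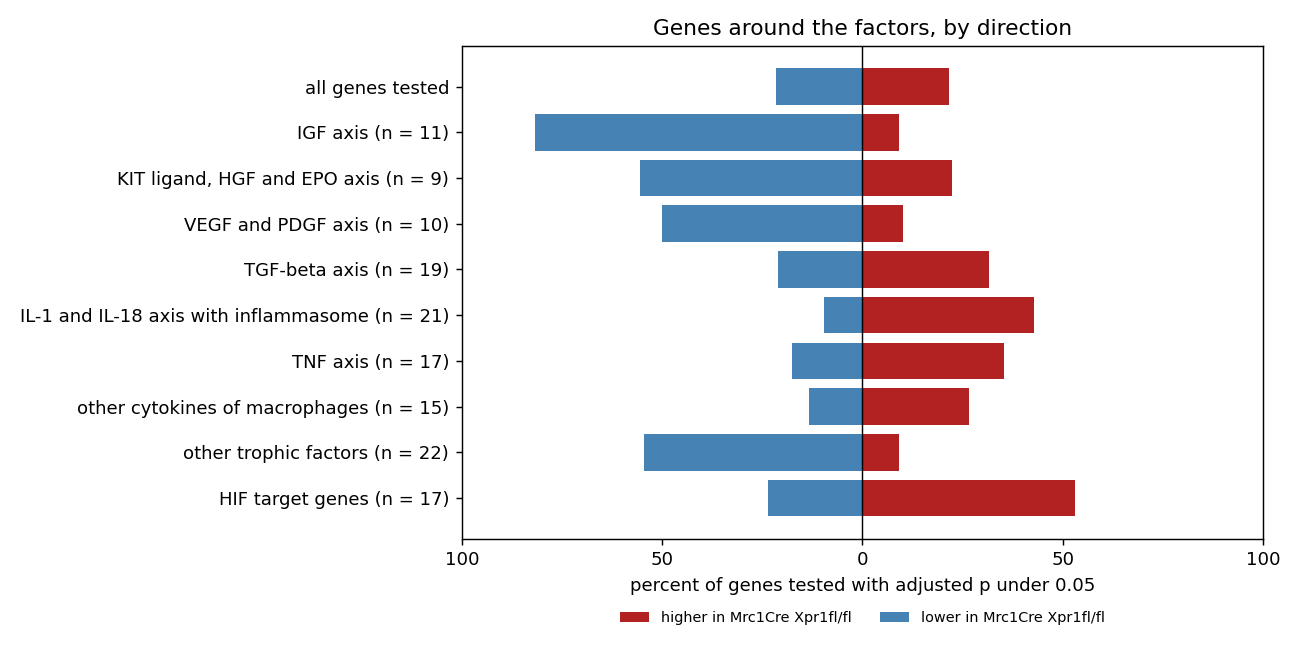
Percent of the genes tested in each list that passed the threshold in limma, higher (red, to the right) or lower (blue, to the left) in Mrc1Cre Xpr1fl/fl macrophages, with the 10 factors themselves left out and all genes tested on top (21.5% higher, 21.6% lower). The IGF list has 9 of 11 genes lower, and the IL-1 and IL-18 list has 9 of 21 higher.

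Levels were compared between factors as normalized counts per kb of exons. In controls *Tgfb1* was highest with 2042 ± 68.7 per kb, followed by *Igf1* with 1214 ± 84.9 and *Il18* with 948 ± 94.7. Then came *Vegfb* with 207 ± 14.9, *Il1b* with 192 ± 55.9, *Tnf* with 173 ± 33.6 and *Pdgfb* with 151 ± 27.6 per kb. *Kitl* with 66.4 ± 15.8, *Vegfa* with 38.8 ± 11.1 and *Hgf* with 14.6 ± 2.05 per kb were lowest, and their ranges did not touch. *Vegfb*, *Il1b*, *Tnf* and *Pdgfb* had overlapping ranges as neighbours and formed a middle group, whereas the ranges of *Tgfb1*, *Igf1* and *Il18* did not touch one another. In Mrc1Cre Xpr1fl/fl samples *Il1b* (336 per kb) and *Tnf* (292 per kb) stood above *Vegfb* (160 per kb), and the ranges of *Il1b* and *Tnf* did not reach that of *Vegfb*. There the ranges of *Igf1* (875 per kb) and *Il18* (820 per kb) overlapped. When the length of the canonical transcript was used instead of all exons, *Il18* came before *Igf1* in both genotypes, so their order depends on the length chosen. So does that of *Vegfb*. By this length *Il1b* (369 per kb) was already above *Vegfb* (356 per kb) in controls, and in Mrc1Cre Xpr1fl/fl samples the ranges of *Tnf* (226 to 351 per kb) and *Vegfb* (249 to 292 per kb) overlapped.

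**Figure D5:**
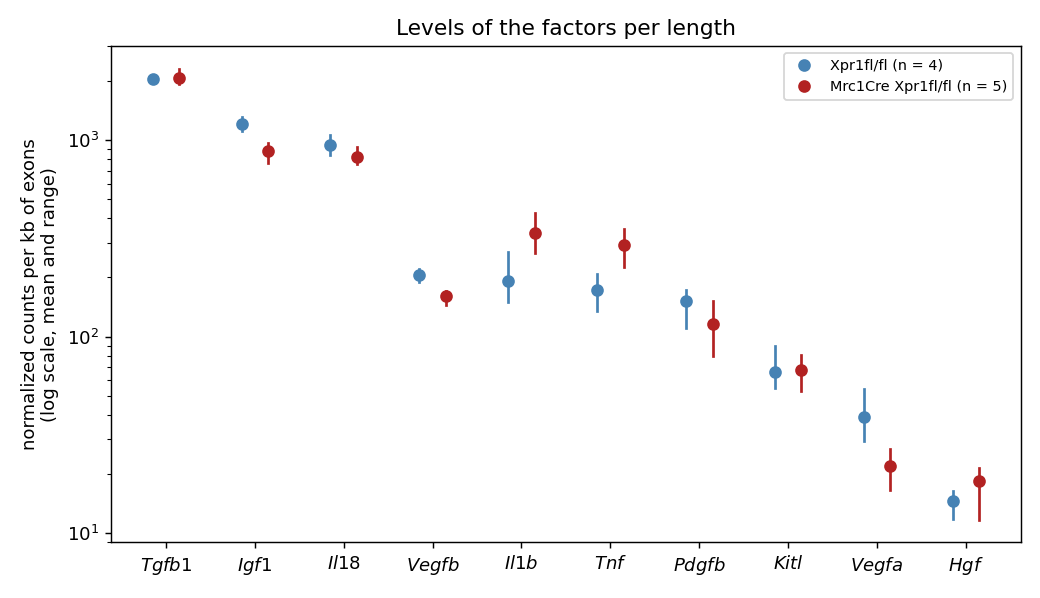
Normalized counts per kb of exons (vertical axis, log scale) of the 10 factors in 4 Xpr1fl/fl control samples (blue) and 5 Mrc1Cre Xpr1fl/fl samples (red), as the mean (point) and the range over samples (line), ordered by the control mean. By this length *Il1b* and *Tnf* lie near *Vegfb* in controls and above it in Mrc1Cre Xpr1fl/fl samples.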

How the data were processed

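Poly(A) RNA of CD45+ F4/80hi CD11blow macrophages from E15.5 livers was sequenced from stranded libraries. The authors quantified reads with salmon on GRCm39, imported them with tximport and deposited normalized counts per gene (a signal, not whole numbers) scaled by the factors of the DESeq2 run of the authors. Versions and the filter behind the 13708 genes are not given in the sources used here. Whole reads could not be recovered, so the depth is unknown and no count model was run.

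Ensembl IDs were matched to GENCODE release 39 symbols (13698 of 13708). Values were tested as log2(value + 1) with limma 3.58.1 (R 4.3.3), using eBayes with trend on genotype alone, over 13594 genes with at least 10 in at least 4 samples, and fold changes are on that scale. In simulated data, 180 of 200 genes changed 2-fold were recovered, with 8 false calls among 13557 genes. The simulation held no date effect and few changed genes. It cannot show how calls fare here, where 43.1% of genes pass and date and genotype overlap. Ratios were compared with exact permutation tests (Python 3.11.15, scipy 1.17.1). Groups came from the labels. Alternatives changed the pseudocount (0.5, 10), the filter (none, 50), the scaling, the variance model, sample weights, the date, the replicate block and each sample in turn.

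Members and lists were chosen with earlier results of these data known. Named genes were all members, *Xpr1* and *Mrc1*, a list of receptors and processing genes, and, per pathway list, the 3 largest changes past the threshold with a mean of at least 50 and no overlap. *Il18r1* has no row in the table. Other genes are named only where a list's count is given. Some markers are not reported here.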

Additional observations from a re-analysis of the deposited data

Results flagged for a closer look

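Among the 108 groups of samples for the 52 named genes and the 2 ratios, 3 held a sample far from the others of its genotype by Dixon's criterion, where chance gives 5.4 (about 1 in 20). *Hgf* was lowest in Mrc1Cre Xpr1fl/fl sample 5, at 124.6 normalized counts against 204.5 to 227.6 in the other Mrc1Cre Xpr1fl/fl samples. *Tgfbr1* was lowest in the same sample, at 5174.8 against 6715.5 to 7219.6. That sample is the only one of its genotype with the earliest date. *Tnfrsf1a* was lowest in control 2, at 6400.5 normalized counts against 6938.0 to 6969.0 in the other controls.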

How the results depend on the processing

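All 5 calls among the factors held in the 9 fits that leave out 1 sample, and in those fits the number of factors past the threshold ranged from 5 to 8 and that of all genes from 4815 to 6081. The 8 came without Mrc1Cre Xpr1fl/fl sample 5, when *Hgf*, *Pdgfb* and *Il18* passed as well. The replicate block also gave 8, since sample 5 has no partner of its number. Samples of the same number did not deviate together (correlations −0.03, 0.15, −0.01 and −0.03), so the numbers do not pair them. With the date as a term, 0 factors and 1194 genes passed. Of the other genes chosen by the rule for named genes, *Flt1*, *Nrp1*, *Pdgfrb*, *Tgfbr1*, *Il18bp*, *Il1r1*, *Nlrp3*, *Igfbp3*, *Spint1*, *Ltbp4*, *Lrrc32*, *Timp3*, *Tnfsf10*, *Tnfsf12*, *Cxcl12* and *Ndrg1* then missed the threshold too, with the same sign, and the cause was not tested. *Vegfa* was the only one of the 5 called factors lost under quantile normalization. Within the earliest date the log2 ratio of *Il18* to *Il18bp* differed by 1.18. Permuting within replicate numbers gave differences of 1.68 for this ratio and 1.09 for *Il1b* to *Il1rn*, each with an exact permutation p of 0.125, the smallest that 4 pairs allow. Leaving out 1 sample gave 1.46 to 1.75 and 0.93 to 1.18. Signs turned only for differences that were not past the threshold. Under 75th percentile scaling *Kitl* was −0.043, *Tgfb1* −0.062 and *Tgfbr2* −0.018. Quantile normalization gave −0.061 for *Tgfb1* and −0.049 for *Tgfbr2*, and array weights 0.0011 for *Tnfrsf1a*. The date term gave −0.15 for *Kitl*, −0.31 for *Hgf*, 0.10 for *Pdgfb*, −0.26 for *Kdr* and −0.020 for *Tgfbr2*. The replicate block gave −0.024 for *Tgfb1*. Leaving out 1 sample, *Kitl* ranged from −0.049 to 0.19, *Tgfb1* from −0.024 to 0.042 and *Tgfbr2* from −0.00098 to 0.11. By canonical transcript length, an alternative added after the data were seen, 6 of the 10 factors changed their place in the order of levels in controls. Depth is unknown, so low values such as those of *Il1r1* and *Ltbp4* carry an unknown counting error.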
